A study of Mus musculus with 23 samples.

Results

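Genes of mast cells and basophils were followed in lung RNA-Seq libraries of BALB/c mice, a strain widely used for allergic airway disease (AAD). The 10 genes, taken by their symbols from the 35322 genes of the table, were the proteases Mcpt1, Mcpt2, Mcpt4, Cma1, Tpsb2, Tpsab1, Cpa3 and Mcpt8 and the IgE receptor chains Fcer1a and Ms4a2. Of these, 9 passed the filter on low values used for testing, which asked for 0.5 RPM or more in at least 4 libraries, where RPM scales a gene's reads to a common library size, and Fcer1a did not. The 23 libraries came from 13-week-old offspring, female by the study's methods although Sham replicate 1 went against this, and formed 4 groups, with 7 Sham, 7 PM, 5 Sham-OVA and 4 PM-OVA libraries. Sham and Sham-OVA offspring had saline-exposed dams, while the dams of PM and PM-OVA offspring received intranasal PM2.5, fine particulate matter, before mating, in gestation and until weaning. Sham-OVA and PM-OVA offspring were sensitised with ovalbumin (OVA) and alum and challenged with nebulised OVA to induce AAD. In place of nebulised OVA, Sham and PM offspring had nebulised saline according to the study's methods, or PBS according to the sample labels. The methods word sensitisation as given to each offspring, so whether Sham and PM offspring were sensitised too is not clear from them. Lungs of all groups were collected after lung function testing, as pieces of whole lung tissue, and the labels do not tie libraries to dams or litters. Replicates are numbered here by the sample titles, while library names in the OVA groups mostly carry other numbers. The library name of PM-OVA replicate 4 has the tag Rel1 in place of a number. P-values rest on the spread between these libraries, each taken as a replicate. The dams were the exposed animals, so p-values for maternal PM2.5 can be too small where libraries shared a dam.

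Mast cells are tissue-resident cells that store proteases in granules and release them when IgE bound to the high-affinity receptor is cross-linked by allergen. In mice, Mcpt1 and Mcpt2 encode chymases typical of mucosal mast cells, which accumulate in epithelia during allergic and parasitic responses. Mcpt4 and Cma1 (chymases), Tpsb2 and Tpsab1 (tryptases) and Cpa3 (a carboxypeptidase) are typical of connective tissue mast cells, although Cpa3 and the tryptases are found in other mast cells too. Mcpt8 encodes a protease of basophils, which are short-lived blood granulocytes that enter inflamed tissue. Fcer1a encodes the IgE-binding chain of the receptor and Ms4a2 its signal-amplifying chain, and both cell types carry them. The shared signalling chain is encoded by Fcer1g, which many other leukocytes use.

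The chymase genes and Mcpt8 lie in a cluster on chromosome 14 in the GENCODE annotation of GRCm38. Cma1 spans chr14:55941451-55944675 on the minus strand, Mcpt1 chr14:56017971-56020384 on the plus strand, and Mcpt2 chr14:56042041-56044642 on the plus strand. Mcpt4 spans chr14:56059629-56062313 and Mcpt8 chr14:56082166-56085273, both on the minus strand. The tryptase genes neighbour each other on chromosome 17, with Tpsab1 at chr17:25343245-25345562 on the minus strand and Tpsb2 at chr17:25366305-25369098 on the plus strand. Cpa3 spans chr3:20215620-20242181, Fcer1a chr1:173221284-173227214 and Ms4a2 chr19:11615523-11623719, all on the minus strand. Values are of whole genes, so no exon or isoform was resolved. Longest coding transcripts of Mcpt1 and Mcpt4 were identical at 85.7% of aligned bases, those of Mcpt1 and Mcpt2 at 82.2%, and those of Tpsb2 and Tpsab1 at 75.1%. No 100-base window of the transcripts of Mcpt1, Mcpt2, Cma1, Tpsb2, Tpsab1, Cpa3, Mcpt8 or Fcer1a also stood in another gene's transcript. For Mcpt4 1 such window was shared (0.0991% of its windows), and for Ms4a2 13 (0.567%), so a small part of their reads could not be assigned with certainty.

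Promoter windows, from 250 bases before to 50 bases after the gene's start, were found for 7 of the 10 genes in the RefSeq table of GRCm38.p6. Mcpt2, Tpsb2 and Tpsab1 had no entry. A GATA motif, here AGATAA on either strand, where the first letter could also be T and the last also G, was looked for because GATA factors are known regulators of mast cell genes. The motif was present in 6 of the 7 windows, with 3 copies in Ms4a2 and none in Mcpt8, and in 29.8% of the 32851 promoter windows of the table. The STAT motif TTCNNNGAA, read on both strands, was in 0 of the 7 windows and in 8.30% of all. The windows of 5 genes are printed 5′ to 3′ on the strand of the gene, with the GATA motif in capitals. Mcpt1 and Mcpt4 are shown because their ratio shifted with OVA challenge, Cpa3 because it was measured in every library, and Ms4a2 and Mcpt8 because they hold the most and the fewest motifs. The windows are chr14:56017714-56018013 (plus strand) for Mcpt1, chr14:56062261-56062560 (minus) for Mcpt4, chr3:20242132-20242431 (minus) for Cpa3, chr19:11623670-11623969 (minus) for Ms4a2 and chr14:56085148-56085447 (minus) for Mcpt8.
Mcpt1: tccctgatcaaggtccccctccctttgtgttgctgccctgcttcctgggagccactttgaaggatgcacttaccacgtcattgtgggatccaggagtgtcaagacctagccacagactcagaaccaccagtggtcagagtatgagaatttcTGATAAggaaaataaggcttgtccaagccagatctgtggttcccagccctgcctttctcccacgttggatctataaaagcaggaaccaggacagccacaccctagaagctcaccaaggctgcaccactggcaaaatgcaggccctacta
Mcpt4: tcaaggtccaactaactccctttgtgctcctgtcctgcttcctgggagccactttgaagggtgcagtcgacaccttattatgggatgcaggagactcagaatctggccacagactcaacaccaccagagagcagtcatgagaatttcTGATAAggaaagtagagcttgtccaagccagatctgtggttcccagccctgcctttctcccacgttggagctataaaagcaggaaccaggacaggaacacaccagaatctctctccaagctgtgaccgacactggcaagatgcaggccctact
Cpa3: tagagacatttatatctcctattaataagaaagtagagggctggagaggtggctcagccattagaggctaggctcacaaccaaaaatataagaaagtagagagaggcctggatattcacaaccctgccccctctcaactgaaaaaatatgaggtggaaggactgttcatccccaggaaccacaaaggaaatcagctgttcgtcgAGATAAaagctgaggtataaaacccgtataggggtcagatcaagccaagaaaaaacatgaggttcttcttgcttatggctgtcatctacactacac
Ms4a2: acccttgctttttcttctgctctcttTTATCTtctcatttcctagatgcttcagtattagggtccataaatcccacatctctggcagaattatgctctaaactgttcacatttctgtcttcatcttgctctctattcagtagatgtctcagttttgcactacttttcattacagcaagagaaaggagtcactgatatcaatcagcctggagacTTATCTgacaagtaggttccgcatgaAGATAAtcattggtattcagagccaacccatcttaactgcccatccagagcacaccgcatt
Mcpt8: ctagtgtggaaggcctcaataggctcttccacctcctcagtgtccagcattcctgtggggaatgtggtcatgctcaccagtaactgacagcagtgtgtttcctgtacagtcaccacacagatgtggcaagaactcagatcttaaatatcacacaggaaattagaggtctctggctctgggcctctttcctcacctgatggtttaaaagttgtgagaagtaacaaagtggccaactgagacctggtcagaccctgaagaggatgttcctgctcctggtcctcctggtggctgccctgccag
The motif began 99 bases before the start in Mcpt1 and 103 bases before it in Mcpt4, and 46 bases before it in Cpa3. In Ms4a2 the motifs began 224, 37 and 11 bases before the start. A match of letters is a description and does not show that a factor bound there.

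Depth differed between the groups. The 14 saline libraries held between 13089691 and 17393579 reads on genes, whereas the Sham-OVA libraries held between 2298645 and 12185451 and the PM-OVA libraries between 4324326 and 12355561. A value of 1 read was worth at most 0.0688 RPM in the saline libraries but 0.311 RPM in Sham-OVA replicate 3, 0.133 RPM in PM-OVA replicate 3 and 0.182 RPM in PM-OVA replicate 4. In these 3 libraries a count of 0 allows up to 0.932, 0.398 and 0.545 RPM, the worth of 3 reads, and these limits cover counting error only. Sham replicate 1 went against the female sex given for the sequenced offspring. It had 0.289 RPM of Xist, the transcript of the inactive X chromosome, compared with 174 to 1618 RPM elsewhere, while Eif2s3y, a gene of the Y chromosome, stood at 54.0 RPM in it and at 0 in the other 22 libraries. It was kept, and leaving it out ended 1 call on the genes described here, that of Mcpt8. Sham-OVA replicate 4 stood apart by its basophil genes, and values that it moved are given with and without it.

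The 10 genes together had few reads, from 29 to 167 per saline library and from 41 to 324 per OVA library except Sham-OVA replicate 4, which had 1264. Defining markers of lung were abundant throughout. The sum of 6 lung epithelial and endothelial markers ranged from 24537 to 66645 RPM over all libraries. All 7 mast cell markers (Kit, Cpa3, Hdc, Gata2, Ms4a2, Mrgprb1, Mrgprb2) had reads in every group, but Kit, Gata2 and Hdc, which other lung cells also express, made up nearly all of their sum. Mrgprb2, the receptor for secretagogues of connective tissue mast cells, had 13 reads in all and Mrgprb1 20. In bulk tissue, fewer cells of a type and less RNA per cell cannot be told apart.

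OVA challenge in the offspring of saline dams was followed by more RNA of the mucosal mast cell chymases, the tryptases and Cpa3. In Sham-OVA against Sham, 6 of the 9 genes tested were higher (Mcpt1, Mcpt2, Tpsb2, Tpsab1, Cpa3 and Mcpt8), 0 were lower and 3 did not pass the test (Mcpt4, Cma1 and Ms4a2). Of all 16795 genes tested with limma, 68.1% were called, 20.6% higher and 47.5% lower. Mcpt1, Mcpt2, Tpsab1 and Mcpt8 passed the filter on low values only through their OVA libraries, since at most 2 of the 14 saline libraries reached 0.5 RPM for each. The counts and medians of the 9 are therefore descriptions. The OVA calls and p-values of these 4 genes depend on that filter too and are no independent support. Of the 5 genes that also passed through the saline libraries alone, 2 were higher (Tpsb2 and Cpa3) and 3 were not called in Sham-OVA, and 2 were higher, 1 lower and 2 not called in PM-OVA. The median difference of the 9 genes was 1.97 in log2(RPM + 0.5), compared with -0.48 over all genes. Quantile normalisation moved the median of all genes to -0.05 and left 7 of the 9 genes called, all higher. It split the calls over all genes into 5484 higher and 5812 lower, compared with 3453 and 7978 before. In the offspring of PM2.5 dams, PM-OVA against PM, 6 of 9 genes were higher (the same 6) and Ms4a2 was lower, whereas Mcpt4 and Cma1 did not pass the test. Here 65.3% of all genes were called, 20.1% higher and 45.2% lower, and the median difference was 0.88 for the 9 genes and -0.43 for all genes. At the depth of the shallowest library 3 of the 9 were called in PM-OVA and 6 in Sham-OVA. At the study's own, stricter threshold (limma, adjusted p below 1e-06 with a log2 difference beyond 1 in either direction), 2 of the 9 were called in the offspring of saline dams (Mcpt2 and Tpsb2) and 0 in those of PM2.5 dams, beside 4.51% and 0.286% of all genes. With DESeq2 on the recovered reads, the tool of the study, that threshold called 5 of the 9 (Cpa3, Mcpt1, Mcpt2, Tpsab1 and Tpsb2) and 0, beside 28.9% and 17.0% of all genes, and with edgeR 2 and 0, beside 8.26% and 0.250%. For 1 of the 9 DESeq2 gave no p-value in Sham-OVA against Sham.

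**Figure D1:**
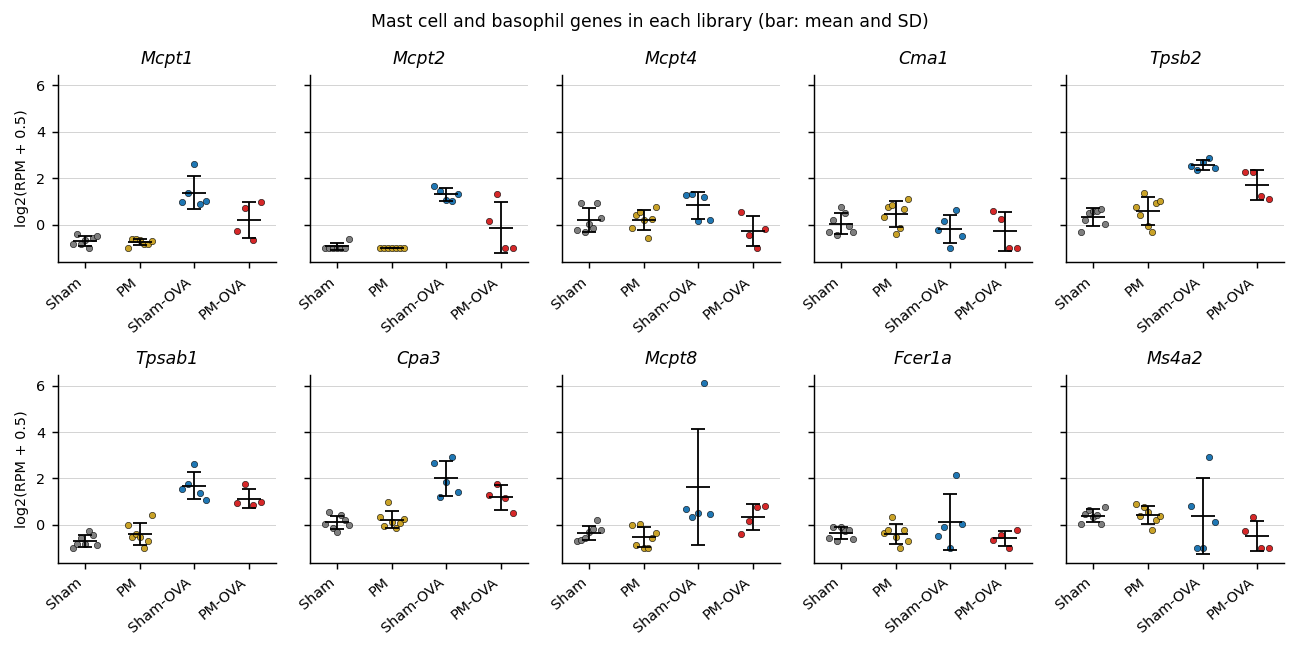
Level of each of the 10 genes in log2(RPM + 0.5) on the vertical axis for the 4 groups on the horizontal axis; each point is a library and bars show the mean and SD. Mcpt1, Mcpt2, Tpsb2, Tpsab1 and Cpa3 sit higher in all 5 Sham-OVA libraries than in any Sham library, and the highest Mcpt8, Fcer1a and Ms4a2 points all belong to Sham-OVA replicate 4.

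Mcpt1, a chymase of mucosal mast cells, was nearly absent without challenge. It lay between 0 and 0.253 RPM in Sham (median 0.127) and between 0 and 0.156 RPM in PM (median 0.114). In Sham-OVA replicates 1 to 5 it was 1.46, 2.03, 5.59, 1.35 and 1.53 RPM, and in PM-OVA replicates 1 to 4 it was 0.336, 1.16, 0.133 and 1.45 RPM. All 5 Sham-OVA libraries were above every Sham library, while 3 of 4 PM-OVA libraries were above every PM library. Of all genes tested, 13.2% were higher without overlap after challenge in the offspring of saline dams and 13.3% in those of PM2.5 dams. The rise was 2.06 ± 0.27 (SE) on log2(RPM + 0.5) in Sham-OVA (limma, adjusted p = 1.28e-05) and 0.95 ± 0.28 in PM-OVA (limma, adjusted p = 0.00944). Over pooled reads Mcpt1 was 14.7 times higher in Sham-OVA than in Sham, with a 95% counting interval of 8.52 to 27.2, which is larger than the fold on the log scale because the pseudocount pulls low values together. The call in PM-OVA was lost when limma weighted the libraries by their quality (adjusted p = 0.0743) and with a block for replicate numbers.

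Mcpt2, the other mucosal mast cell chymase, had 3 reads in the 14 saline libraries, all in Sham replicate 7 (0.151 RPM). In Sham-OVA replicates 1 to 5 it was 2.71, 2.26, 1.55, 1.51 and 1.97 RPM, from 39, 30, 5, 19 and 27 reads. In PM-OVA replicates 1 and 2 it was 0.605 and 2.01 RPM, and replicates 3 and 4, the shallowest of that group, had 0 reads. The gene was thus seen in every Sham-OVA library and in 2 of 4 PM-OVA libraries. Mcpt2 rose by 2.25 ± 0.17 (SE) in Sham-OVA (limma, adjusted p = 1.03e-07). Over pooled reads it was 84.9 times higher, with a counting interval of 28.3 to 417 since the Sham group had 3 reads. In PM-OVA the rise was 0.87 ± 0.36 (limma, adjusted p = 0.0490). The pooled level was 34.1 times the worth of 3 reads over the PM group, which had 0 reads. Counting error of the 35 PM-OVA reads, 26 of them in replicate 2, is not part of this value. The Mcpt2 call in PM-OVA was lost on leaving out any 1 PM library (limma, adjusted p from 0.0683 to 0.0697), PM-OVA replicate 1 (adjusted p = 0.0975) or PM-OVA replicate 2, without which the difference was 0.38 (adjusted p = 0.169). The exact permutation test of Mcpt2 in PM-OVA against PM, two-sided, gave p = 0.109. A pseudocount of 1, no filter, a filter on the mean, median-of-ratios scaling, array weights and DESeq2 ended the call as well. So did thinning to the depth of the shallowest library and a block for replicate numbers, and the call was kept in 7 of 25 alternatives.

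Mcpt4, a chymase of connective tissue mast cells that cleaves matrix and cytokines, was present in every saline library. It ranged from 0.289 to 1.39 RPM in Sham (median 0.507) and from 0.176 to 1.20 RPM in PM (median 0.672). The 5 Sham-OVA libraries held 1.95, 1.96, 0.621, 1.75 and 0.657 RPM, with 3 of 5 libraries above every Sham library. In PM-OVA it was 0.941, 0.232, 0 and 0.363 RPM, within the PM range apart from replicate 3, where the 0 could not be placed against the lowest PM library at its depth. The differences were 0.63 ± 0.30 (SE) in Sham-OVA (limma, adjusted p = 0.0768) and -0.49 ± 0.30 in PM-OVA (limma, adjusted p = 0.169). Mcpt4 was called higher by limma in Sham-OVA on leaving out Sham replicate 2 (adjusted p = 0.0403), Sham replicate 6 (0.0393), Sham-OVA replicate 3 (0.0223) or Sham-OVA replicate 5 (0.0403), and called lower in PM-OVA without PM-OVA replicate 1 (0.0290). With quantile normalisation the Sham-OVA difference was 1.18 (adjusted p = 0.00196), and edgeR on the reads gave 1.40 (adjusted p = 0.0127).

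Cma1, a chymase found with Cpa3 in connective tissue mast cells, overlapped between challenged and unchallenged libraries. It ranged from 0.232 to 1.20 RPM in Sham (median 0.465) and from 0.263 to 1.65 RPM in PM (median 1.10). In Sham-OVA it was 0.347, 0.602, 0, 1.04 and 0.219 RPM, and in PM-OVA 1.01, 0.696, 0 and 0 RPM. The 3 libraries at 0 were also the shallowest of their groups (Sham-OVA 3, PM-OVA 3 and PM-OVA 4). The differences were -0.23 ± 0.29 (SE) in Sham-OVA (limma, adjusted p = 0.495) and -0.74 ± 0.37 in PM-OVA (limma, adjusted p = 0.0945), so a change was not detectable at this depth. Without PM-OVA replicate 1 Cma1 was called lower in PM-OVA (difference -1.04, limma adjusted p = 0.0216). The sign of the Sham-OVA difference turned with quantile normalisation (0.28).

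The tryptase genes were higher after challenge. Tpsb2, which mast cells release as an active tetramer, ranged from 0.289 to 1.10 RPM in Sham (median 0.926) and from 0.293 to 2.08 RPM in PM (median 1.17). Sham-OVA replicates 1 to 5 held 5.28, 4.59, 5.90, 6.85 and 4.97 RPM, and in PM-OVA 4.37, 4.25, 1.86 and 1.63 RPM. All 5 Sham-OVA libraries lay above every Sham library, but only PM-OVA replicates 1 and 2 lay above every PM library. Tpsb2 rose by 2.26 ± 0.22 (SE) in Sham-OVA (limma, adjusted p = 7.72e-07) and by 1.13 ± 0.36 in PM-OVA (limma, adjusted p = 0.0137). The PM-OVA call was lost when all libraries were thinned to the depth of the shallowest (limma, adjusted p = 0.0941) and with array weights (adjusted p = 0.244).

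Tpsab1, the neighbouring tryptase gene, was at 0 in Sham replicate 1 and PM replicate 5 and reached 0.334 RPM in Sham (median 0.0634) and 0.854 RPM in PM (median 0.205). In Sham-OVA it was 2.43, 2.93, 5.59, 2.07 and 1.61 RPM, and in PM-OVA 1.41, 2.86, 1.33 and 1.45 RPM. Challenged and unchallenged libraries did not overlap in the offspring of either kind of dam. Tpsab1 rose by 2.36 ± 0.25 (SE) in Sham-OVA (limma, adjusted p = 1.70e-06) and by 1.51 ± 0.27 in PM-OVA (limma, adjusted p = 5.28e-04). It was the gene whose calls in both OVA comparisons were kept under all 26 and 25 alternatives tried at an adjusted p under 0.05. Over pooled reads Tpsab1 was 18.6 times higher in Sham-OVA (counting interval 11.0 to 33.4) and 6.17 times higher in PM-OVA (4.10 to 9.45).

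Cpa3, the carboxypeptidase stored with chymase in mast cell granules, was read in all 23 libraries. It ranged from 0.317 to 0.950 RPM in Sham (median 0.520) and from 0.411 to 1.45 RPM in PM (median 0.593). In the challenged offspring of saline dams it was 5.77, 1.81, 3.11, 7.01 and 2.19 RPM, and in PM-OVA 1.95, 2.94, 1.73 and 0.908 RPM. Every Sham-OVA library exceeded every Sham library, and PM-OVA replicate 4 was the challenged library that fell within the PM range. Cpa3 rose by 1.90 ± 0.29 (SE) in Sham-OVA (limma, adjusted p = 5.18e-05), or by 1.68 without Sham-OVA replicate 4, and by 0.96 ± 0.27 in PM-OVA (limma, adjusted p = 0.00700). The PM-OVA call was lost at one depth (limma, adjusted p = 0.0665), with array weights (adjusted p = 0.0699) and with a block for replicate numbers.

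**Figure D2:**
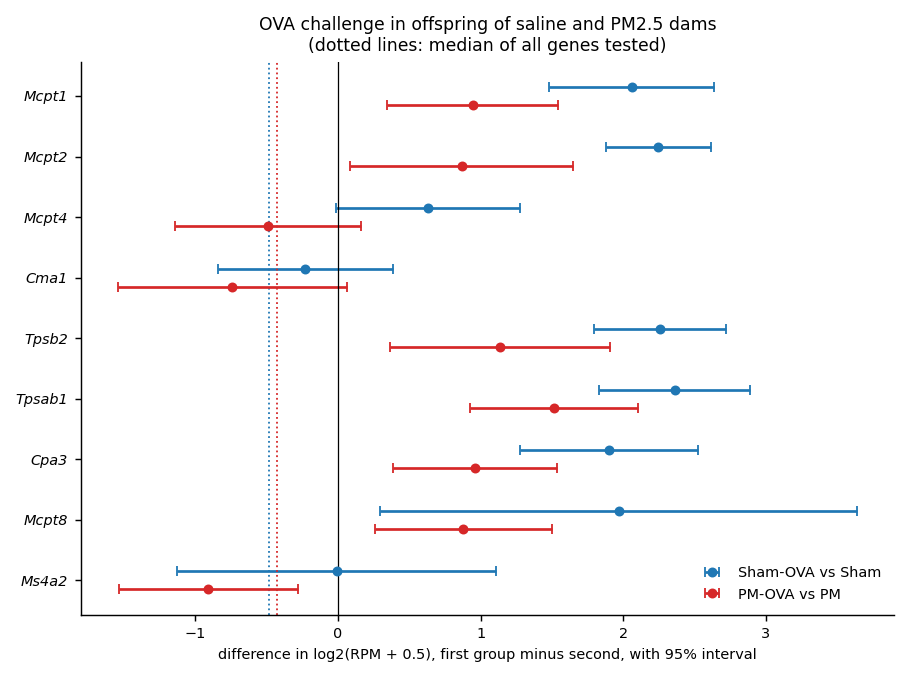
Difference in log2(RPM + 0.5) between OVA and saline libraries (horizontal axis) for the 9 genes tested (vertical axis) in offspring of saline dams (blue) and PM2.5 dams (red), with 95% intervals from limma; dotted lines mark the median of all genes tested. Intervals of Mcpt1, Mcpt2, Tpsb2, Tpsab1, Cpa3 and Mcpt8 lie above 0 in both comparisons, and that of Mcpt8 in Sham-OVA is the widest, from 0.29 to 3.64.

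Mcpt8, the basophil protease, was below 0.65 RPM in all saline libraries, with 0.115 to 0.639 RPM in Sham (median 0.317) and 0 to 0.519 RPM in PM (median 0.183). Sham-OVA replicates 1 to 5 held 1.11, 0.752, 0.932, 68.0 and 0.876 RPM, and in PM-OVA 0.269, 0.618, 1.19 and 1.27 RPM. Sham-OVA replicate 4 had 854 reads of Mcpt8 and the other 4 Sham-OVA libraries between 3 and 16. All 5 Sham-OVA libraries and 3 of 4 PM-OVA libraries were above every unchallenged library of their group of dams. The rise was 1.97 ± 0.78 (SE) in Sham-OVA (limma, adjusted p = 0.0369). Without Sham-OVA replicate 4 it was 0.85 ± 0.21 with a smaller adjusted p of 0.00276 by limma, since the spread between libraries was narrower. Leaving out Sham replicate 1, 2, 3, 4 or 7 ended the call, with adjusted p of 0.0610, 0.0586, 0.0590, 0.0534 and 0.0521. A pseudocount of 1 and the use of no filter ended it too. In PM-OVA Mcpt8 rose by 0.88 ± 0.29 (limma, adjusted p = 0.0167), a call lost without PM-OVA replicate 3 (adjusted p = 0.0607) or PM-OVA replicate 4 (adjusted p = 0.0602). It was also lost in a joint fit of the 4 groups, at one depth and with a block for replicate numbers.

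Sham-OVA replicate 4 was high in further genes of basophils. Prss34, a tryptase of basophils, was at 42.5 RPM there, and between 0 and 0.752 RPM in the other 4 Sham-OVA libraries. Cyp11a1, the first enzyme of steroid synthesis, was at 22.5 RPM compared with 1.43 to 2.17 RPM. Cd200r3, an activating receptor, was at 7.01 RPM compared with 0 to 0.949 RPM. Among the genes described here, Fcer1a (3.90 RPM), Ms4a2 (7.17 RPM), Cpa3 (7.01 RPM), Tpsb2 (6.85 RPM) and Cma1 (1.04 RPM) were also highest of the 5 Sham-OVA libraries in this one, but the mucosal chymases Mcpt1 (1.35 RPM) and Mcpt2 (1.51 RPM) were the lowest of the 5. Of 5 other basophil genes, 2 were higher in Sham-OVA against Sham with this library (Cyp11a1 and Il3ra) and 1 lower (Itga2). The other 2 (Prss34 and Cd200r3) were not called, beside 20.6% higher and 47.5% lower of all genes. On the recovered reads edgeR also called Prss34 (difference 6.10, adjusted p = 5.15e-04) and Cd200r3 (1.87, adjusted p = 0.0112), which made 4 of 5 higher, and DESeq2 called 3 of 5 higher. Without this library the limma counts were the same, and the median difference of the list went from 0.71 to 0.38. In the other 4 Sham-OVA libraries Il3ra lay at 17.8 to 35.4 RPM and Itga2 at 1.55 to 12.9 RPM. Neither was thus confined to the library high in Mcpt8 and Prss34.

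**Figure D3:**
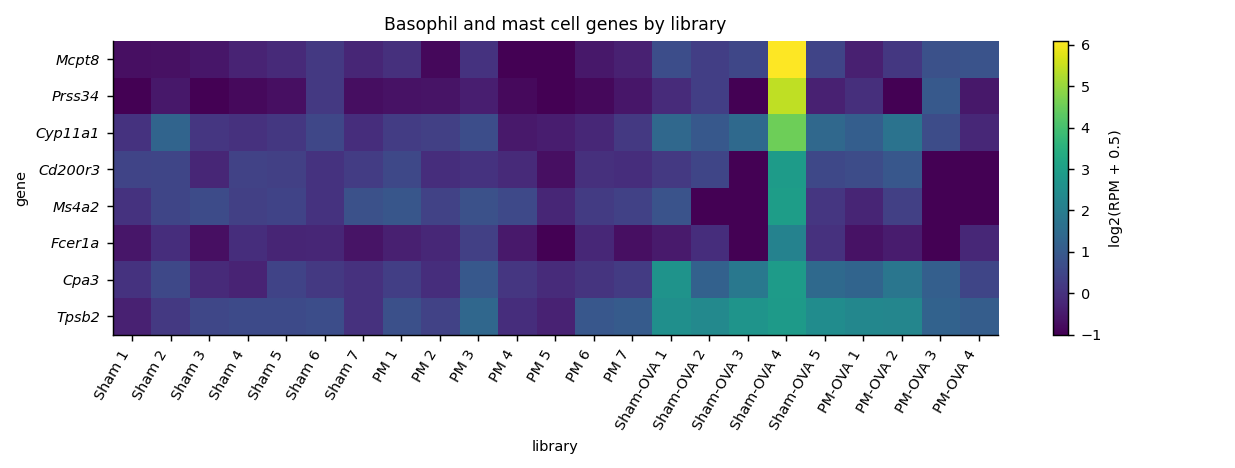
Level of 8 basophil and mast cell genes (rows) in each of the 23 libraries (columns), with colour giving log2(RPM + 0.5). Mcpt8, Prss34, Cyp11a1, Cd200r3, Ms4a2 and Fcer1a are brightest in Sham-OVA replicate 4, whereas Cpa3 and Tpsb2 are raised over several OVA libraries.

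The receptor chains were at low levels, and neither passed its test in Sham-OVA against Sham. Fcer1a ranged from 0.116 to 0.444 RPM in Sham (median 0.334) and from 0 to 0.779 RPM in PM (median 0.275). In Sham-OVA it was 0.208, 0.451, 0, 3.90 and 0.511 RPM, and in PM-OVA 0.134, 0.232, 0 and 0.363 RPM. The groups overlapped, with 3 of 5 Sham-OVA libraries above every Sham library. Two-sided exact permutation tests gave p = 0.385 for Fcer1a in Sham-OVA against Sham (difference 0.48) and p = 0.458 in PM-OVA against PM (difference -0.20). Without Sham-OVA replicate 4 the Fcer1a difference was -0.02. With 7 reads of Fcer1a in the 4 PM-OVA libraries together, a small change was not detectable at this depth.

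Ms4a2 had more reads than Fcer1a without challenge, from 0.520 to 1.20 RPM in Sham (median 0.836) and from 0.352 to 1.38 RPM in PM (median 0.818). The 5 Sham-OVA libraries held 1.25, 0, 0, 7.17 and 0.584 RPM, with replicates 1 and 4 above every Sham library and replicate 2 below. The 0 of replicate 3 could not be placed, since its depth allows up to 0.932 RPM. In PM-OVA it was 0.336, 0.773, 0 and 0 RPM. Replicate 1 was below every PM library, while the limits of replicates 3 and 4 (0.398 and 0.545 RPM) were above the lowest PM library. The difference in Sham-OVA was -0.01 ± 0.53 (SE) (limma, adjusted p = 0.987), and it was -0.65 without Sham-OVA replicate 4, 0.50 with quantile normalisation, 1.55 with edgeR (adjusted p = 0.0677) and 1.39 with DESeq2 (adjusted p = 0.10). In PM-OVA Ms4a2 fell by 0.91 ± 0.29 (limma, adjusted p = 0.0146). That call was lost without PM-OVA replicate 3 (adjusted p = 0.0582) or PM-OVA replicate 4 (adjusted p = 0.0544), both at 0 reads, with quantile normalisation (difference -0.49, adjusted p = 0.0802) and with edgeR on the reads (adjusted p = 0.136). DESeq2 on the reads and a joint fit of the 4 groups ended it as well.

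Whether maternal PM2.5 changed these genes was compared without and with OVA challenge. Libraries were the units of these tests, although the dams were the exposed animals. Without challenge, PM against Sham, 0 of 9 genes were called by limma (0.0% of all genes), and 0 of 9 had an unadjusted p under 0.05, beside 4.35% of all genes. The differences ran from -0.19 ± 0.20 (SE) for Mcpt8 to 0.42 ± 0.25 for Cma1, each with a 95% interval that spans 0. On the recovered reads edgeR and DESeq2 called 0 of 9 here as well. Fcer1a differed by -0.02 (two-sided exact permutation test, p = 0.936).

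With challenge, PM-OVA against Sham-OVA, 0 of 9 genes were called (limma, adjusted p = 1 for each; 0.0% of all genes). All 9 estimates were below 0, beside 47.7% of all genes, with a median of -0.86 for the 9 and 0.01 for all genes. Mcpt1, Mcpt2, Tpsab1 and Mcpt8 passed the filter only through OVA libraries. Mcpt4, Cma1, Tpsb2, Cpa3 and Ms4a2 passed through the saline libraries alone as well. The 9 were also measured in the same libraries, so counts over them are descriptions and not independent support. An unadjusted p under 0.05 was reached by 4 of the 9 (Mcpt1, Mcpt2, Mcpt4 and Tpsb2), compared with 1.86% of all genes in either direction and 0.673% in the lower one. DESeq2 on the reads gave 5 and edgeR 4, and both called 0, but DESeq2 gave no p-value for 1 of the 9. The largest of these differences was -1.43 ± 0.47 (SE) for Mcpt2, followed by -1.17 ± 0.46 for Mcpt1, -1.11 ± 0.38 for Mcpt4 and -0.86 ± 0.34 for Tpsb2. Tpsb2 did not overlap between the groups, with 1.63 to 4.37 RPM in PM-OVA and 4.59 to 6.85 RPM in Sham-OVA. Of all genes, 0.298% were lower without overlap. The two-sided exact permutation test of Tpsb2 gave p = 0.00794, the smallest possible with 4 and 5 libraries. This p reflects the same separation of the groups and was not adjusted for the choice of Tpsb2. Two-sided exact permutation tests, unadjusted, gave p = 0.01587 for Mcpt1, p = 0.03175 for Mcpt2 and p = 0.04762 for Mcpt4. For the remaining genes, unadjusted exact permutation tests gave p from 0.127 for Cpa3 to 0.833 for Cma1. PM-OVA replicates 3 and 4, with the lowest sums over the 10 genes (6.24 and 7.44 RPM), were also the shallowest of their group. Sham-OVA replicate 3, the shallowest library of all, had a sum of 23.3 RPM, the highest of its group after replicate 4. When all libraries were thinned to one depth all 9 estimates were still below 0 and 2 of the 9 had an unadjusted p under 0.05. Without PM-OVA replicate 3, 8 were below 0 and 1 had an unadjusted p under 0.05. Without Sham-OVA replicate 4 these counts were 8 and 3, and without PM-OVA replicate 4 they were 8 and 3. The Mcpt8 difference was -1.28 ± 1.12 (SE) with Sham-OVA replicate 4 and -0.16 ± 0.32 without it, and that of Ms4a2 -0.85 ± 0.76 and -0.21 ± 0.48.

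The interaction asks whether the OVA response differed between the offspring of the 2 kinds of dam, and it uses the same libraries as the comparisons above. No gene of the 9 was called (limma, adjusted p from 0.592 for Mcpt2 to 1.00 for Mcpt8; 0.0% of all genes). All 9 estimates were below 0 (50.8% of all genes), and 6 of 9 had an unadjusted p under 0.05 (Mcpt1, Mcpt2, Mcpt4, Tpsb2, Tpsab1 and Cpa3), compared with 5.08% of all genes and 1.56% in the lower direction. Of those 6, Mcpt1, Mcpt2 and Tpsab1 passed the filter only through OVA libraries, so these counts are descriptions as well. On the reads edgeR and DESeq2 called 0, with 6 and 5 unadjusted p under 0.05, and DESeq2 gave no p-value for 1 of the 9. With limma's array weights 6 of 9 were called, but so were 4616 of all genes, 3965 of them lower, and the median of all genes moved to -0.32. The estimate was -1.38 ± 0.39 (SE) for Mcpt2, -1.13 ± 0.41 for Tpsb2, -1.12 ± 0.44 for Mcpt4 and -1.11 ± 0.40 for Mcpt1. Mcpt2 was called when PM-OVA replicate 2, its highest PM-OVA library, was left out (estimate -1.86, limma adjusted p = 0.0101), and its estimate turned to 0.36 with edgeR, where the PM group had 0 reads. Without Sham-OVA replicate 4, 8 estimates were below 0 and 5 had an unadjusted p under 0.05, and the Mcpt8 estimate went from -1.09 ± 0.94 to 0.03 ± 0.35. The difference between the responses thus did not pass the adjusted test for any of the 9.

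**Figure D4:**
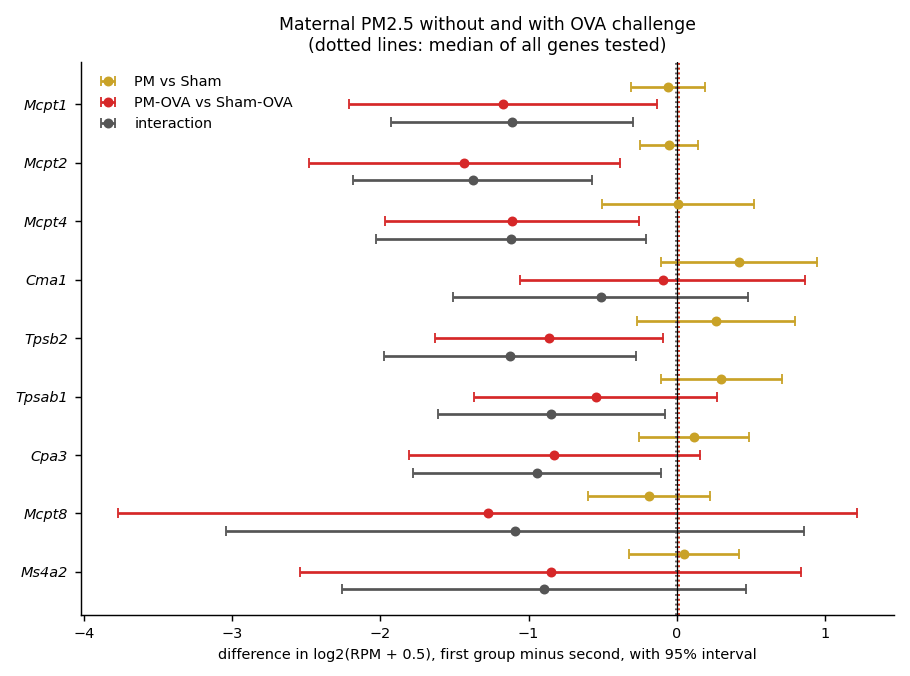
Difference in log2(RPM + 0.5) with 95% intervals from limma (horizontal axis) for the 9 genes tested (vertical axis), for PM against Sham (yellow), PM-OVA against Sham-OVA (red) and the interaction (grey). Red and grey estimates all lie below 0, while yellow ones lie between -0.19 and 0.42.

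Ratios compare pairs of genes within a library. The pairs were chosen with earlier results of these data known, so the p-values are not independent of that choice. The ratio of Mcpt1 to Mcpt4 compares a mucosal with a connective tissue chymase. As a difference in log2(RPM + 0.5) it was -0.89 ± 0.38 (SD, n = 7) in Sham, -0.96 ± 0.36 (n = 7) in PM, 0.54 ± 1.16 (n = 5) in Sham-OVA and 0.48 ± 0.93 (n = 4) in PM-OVA. The shift with OVA was 1.43 in both kinds of offspring (two-sided exact permutation tests, p = 0.00126 and p = 0.00606, adjusted over 16 tests to p = 0.0101 and p = 0.0323). The ratio of Fcer1a to Cpa3 went from -0.47 ± 0.31 in Sham to -1.89 ± 1.04 in Sham-OVA and from -0.60 ± 0.29 in PM to -1.76 ± 0.71 in PM-OVA (exact permutation tests, adjusted p = 0.0101 and p = 0.0364). In these libraries Mcpt1 thus changed unequally to Mcpt4, and Fcer1a unequally to Cpa3, at the depths as sequenced. When all libraries were thinned to the depth of the shallowest, the shifts were 1.10 and 1.46 for Mcpt1 to Mcpt4 and -1.21 and -1.18 for Fcer1a to Cpa3, and none of the 4 was called (exact permutation tests, adjusted p from 0.388 to 0.598). Sham-OVA replicate 3 had the highest Mcpt1 to Mcpt4 ratio, 2.44, from 18 and 2 reads.

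The other ratios, Mcpt8 to Cpa3 and Ms4a2 to Fcer1a, passed in none of their comparisons, so 4 of 16 ratio tests were called. Mcpt8 to Cpa3 was 3.19 in Sham-OVA replicate 4 and between -1.96 and -0.88 in the other Sham-OVA libraries. Ms4a2 to Fcer1a differed by -0.71 in PM-OVA against PM (exact permutation test, adjusted p = 0.116). No ratio differed between PM-OVA and Sham-OVA (exact permutation tests, unadjusted p from 0.802 to 0.929). The 2 called ratios in PM-OVA were lost on leaving out some libraries. In exact permutation tests Mcpt1 to Mcpt4 had adjusted p = 0.0508 without PM replicate 1, 2, 3, 4 or 6, 0.0667 without PM-OVA replicate 2 or 4, and 0.0889 without PM-OVA replicate 3. By the same exact tests Fcer1a to Cpa3 had adjusted p = 0.0571 without PM replicate 1, 2, 3, 4 or 6, 0.10 without PM-OVA replicate 1 or 3, and 0.080 without PM-OVA replicate 2. Conversely, Ms4a2 to Fcer1a passed without PM-OVA replicate 2 (difference -0.94, exact permutation test, adjusted p = 0.0444).

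**Figure D5:**
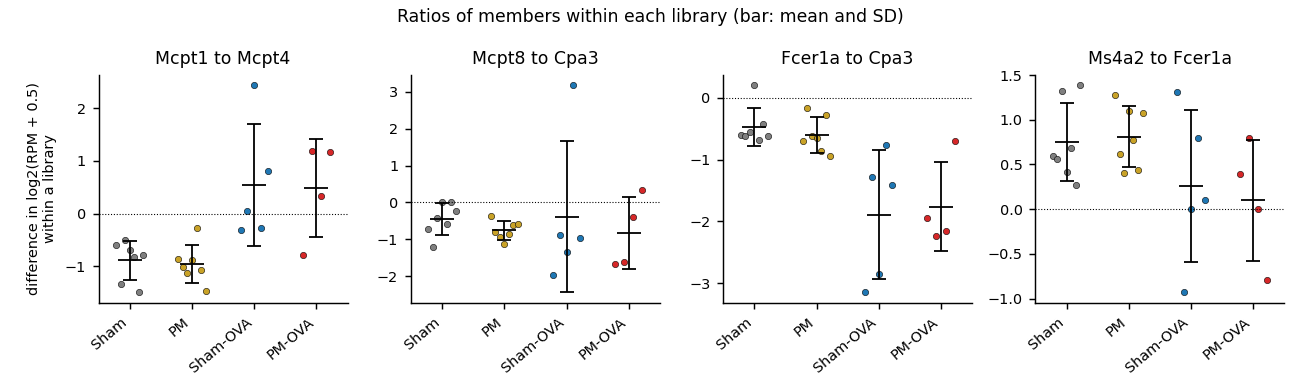
Ratios of 2 genes within each library as a difference in log2(RPM + 0.5) (vertical axis) for the 4 groups (horizontal axis); points are libraries and bars the mean and SD. Mcpt1 to Mcpt4 is higher and Fcer1a to Cpa3 lower in the OVA groups, and Mcpt8 to Cpa3 in Sham-OVA replicate 4, at 3.19, stands above all other libraries.

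Levels of different genes were compared per kilobase of exonic length. In Sham, Mcpt4 (0.648 ± 0.434 RPM per kb, SD, n = 7), Cma1 (0.526 ± 0.332) and Tpsb2 (0.490 ± 0.194) were highest, followed by Cpa3 (0.393 ± 0.151), Mcpt8 (0.303 ± 0.186), Ms4a2 (0.293 ± 0.0899), Fcer1a (0.288 ± 0.139), Mcpt1 (0.123 ± 0.0894), Tpsab1 (0.0626 ± 0.0573) and Mcpt2 (0.0203 ± 0.0537). Neighbours in this order differed by less than the larger SD of the pair, except Fcer1a and Mcpt1. In PM the order began with Cma1 (0.872 ± 0.456) and Tpsb2 (0.696 ± 0.395). In Sham-OVA Mcpt8 came first with 14.4 ± 30.1 (n = 5), and seventh with 0.92 ± 0.15 (n = 4) without replicate 4, when Tpsb2 came first (3.25 ± 0.349) and Ms4a2 last (0.163 ± 0.212). With all 5 libraries it was followed by Tpsb2 (3.46 ± 0.557), Cpa3 (2.62 ± 1.51), Mcpt1 (2.36 ± 1.78) and Mcpt2 (1.89 ± 0.473), while Cma1 (0.404 ± 0.365) came last. In PM-OVA Tpsb2 (1.90 ± 0.930, n = 4) and Cpa3 (1.24 ± 0.550) came first and Ms4a2 (0.0985 ± 0.130) last. The share of 100-base windows that lie in 1 exon ranged from 31.6% in Cpa3 to 94.6% in Tpsab1. The aligner does not split reads over introns, and the part of this share in the order was not tested.

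Fcer1g, the shared signalling chain of Fc receptors, rose with challenge, from 9.35 to 20.1 RPM in Sham (median 11.5) and 11.5 to 15.7 RPM in PM (median 12.2). The 5 Sham-OVA libraries held 58.6, 52.6, 50.6, 77.4 and 58.9 RPM, and in PM-OVA 30.0, 48.0, 75.9 and 57.9 RPM. Its log2 difference was 2.25 (limma, adjusted p = 2.38e-07) in Sham-OVA and 1.91 (adjusted p = 3.70e-05) in PM-OVA. Together with 14 genes that act next to the receptor, 11 of 15 were higher, 3 lower and 1 not called in Sham-OVA, beside 20.6% higher and 47.5% lower of all genes, and 8 higher, 4 lower and 3 not called in PM-OVA, beside 20.1% and 45.2%. With DESeq2, edgeR and median-of-ratios scaling 11 were higher in either comparison. Those settings put 29.2% to 33.2% of all genes higher in Sham-OVA and 29.0% to 31.7% in PM-OVA. The adaptor gene Lat2 and the exchange factor gene Vav1 rose by 2.55 and 2.26 in Sham-OVA and by 2.27 and 1.95 in PM-OVA, as did Btk, a kinase also of B cells, by 2.22 and 1.61. Fyn, Gab2 and Plcg1 fell by 1.01, 0.96 and 1.16 in Sham-OVA and by 1.05, 0.97 and 1.00 in PM-OVA. These signalling genes are used by many leukocytes, and the list had a median of 1.08 for saline dams and 0.80 for PM2.5 dams. The Fyn call in Sham-OVA was lost with edgeR on the reads (-0.44, adjusted p = 0.0738).

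Other genes of mast cell identity and mediators were called in either direction. Of 15 such genes 12 passed the filter, and 3 were higher, 5 lower and 4 not called in each OVA comparison, shares near those of all genes (20.6% higher and 47.5% lower in Sham-OVA, 20.1% and 45.2% in PM-OVA). Kit, the receptor for stem cell factor, fell from 253 ± 36.3 RPM (SD, n = 7) in Sham to 82.0 ± 36.9 (n = 5) in Sham-OVA, by 1.82 on the log2 scale (limma, adjusted p = 2.59e-04), and from 278 ± 85.9 in PM to 90.9 ± 57.8 in PM-OVA, by 1.77 (adjusted p = 0.00285). Kit and Gata2 are also expressed by lung endothelium. Its ligand gene Kitl fell by 2.06 and 2.27. Hdc, which makes histamine in mast cells, basophils and other granulocytes, rose from 73.7 ± 13.8 RPM in Sham to 159 ± 40.2 in Sham-OVA, by 1.10 (limma, adjusted p = 5.26e-05), and by 0.82 in PM-OVA (adjusted p = 2.90e-04). The leukotriene genes Ltc4s and Alox5ap rose by 1.65 and 1.54 in Sham-OVA and by 1.30 and 1.17 in PM-OVA. The transcription factor gene Mitf fell by 1.76 and 1.27, and Gata2, needed by both mast cells and basophils, fell by 0.58 in Sham-OVA (limma, adjusted p = 0.00732) and differed by -0.31 in PM-OVA (limma, adjusted p = 0.351). The Gata2 call was lost with median-of-ratios scaling (-0.21 in Sham-OVA and 0.05 in PM-OVA), under which 5 genes of the list were higher, 4 lower and 3 not called in Sham-OVA, and 4, 4 and 4 in PM-OVA.

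Signals that act on mast cells were listed as growth, alarmin and homing genes. In Sham-OVA 7 of 13 tested were higher, 3 lower and 3 not called, and in PM-OVA 8 were higher, 3 lower and 2 not called, beside 20.6% higher and 47.5% lower of all genes in the first and 20.1% and 45.2% in the second. With DESeq2, edgeR and median-of-ratios scaling 10 were higher in Sham-OVA and 8 to 9 in PM-OVA. Il1rl1, the receptor for IL-33, rose by 1.40 in Sham-OVA and 1.04 in PM-OVA (limma, adjusted p = 0.00133 and 5.11e-04), and Il10 rose by 3.85 and 2.79. The integrin chain genes Itgb7 and Itga4, which guide mast cell progenitors, rose by 0.86 and 1.27 in Sham-OVA and by 0.67 and 0.76 in PM-OVA. Tslp, an epithelial alarmin, fell by 1.36 and 0.61, calls that median-of-ratios scaling ended in both comparisons (-1.15 and -0.27). Il3 and Il9, growth factors of basophils and mucosal mast cells, had 0 reads in every library, which allows up to 0.0525 RPM over the Sham-OVA group and 0.0734 RPM over the PM-OVA group.

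Cytokine and other genes of IgE production and of other IgE or IgG receptors were mostly higher or not called. Of 9 genes tested, 5 were higher and 4 not called in Sham-OVA, and 4 higher, 1 lower (Fcgr1, by 0.61) and 4 not called in PM-OVA, beside 20.6% higher and 47.5% lower of all genes in Sham-OVA and 20.1% and 45.2% in PM-OVA. With DESeq2, edgeR and median-of-ratios scaling 6 to 7 were higher in Sham-OVA and 5 to 6 in PM-OVA, and 0 were lower. Fcgr1 was not called with median-of-ratios scaling (-0.30). Il13 rose by 1.73 and 1.14, Il4 by 0.99 and 0.69, and the inhibitory receptor gene Fcgr2b by 2.16 and 1.95. Ighe and Ighg1 were not analysed here. Of 10 other proteases of the chymase cluster only Gzmb passed the filter, and it was lower in both comparisons, by 1.45 and 0.86, the second of which was lost with median-of-ratios scaling (-0.53). Mcpt9 and Cma2, chymase genes of the same cluster, had 0 reads in every library.

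Markers of some other cells also differed between challenged and unchallenged libraries. The sum of 5 plasma cell markers ranged from 279 to 453 RPM in Sham and from 7210 to 12469 RPM in Sham-OVA, and that of 5 eosinophil markers from 3.66 to 14.0 RPM and from 19.6 to 48.0 RPM. In PM and PM-OVA the plasma cell sums were 288 to 431 and 6698 to 10906 RPM. The eosinophil sums there were 4.93 to 15.8 and 20.9 to 29.5 RPM. Of the 5 eosinophil markers 4 were higher and 1 lower (Siglecf) in each OVA comparison. Of all genes 20.6% were higher and 47.5% lower in Sham-OVA, and 20.1% and 45.2% in PM-OVA. In Sham-OVA edgeR did not call Siglecf (-0.61, adjusted p = 0.0847). The 6 heart and adipose markers summed to 63.4 to 175 RPM in Sham, 95.9 to 218 RPM in PM, 27.0 to 169 RPM in Sham-OVA and 63.6 to 80.6 RPM in PM-OVA, and the 10 cartilage, mesothelium and smooth muscle markers to 569 to 1132 RPM in Sham and 918 to 1227 RPM in Sham-OVA. Of 5 cytotoxic lymphocyte markers 3 were lower and 2 not called in Sham-OVA, beside 47.5% lower of all genes. With DESeq2, edgeR or median-of-ratios scaling 2 were lower, beside 33.8% to 38.1% of all genes. In PM-OVA 4 were lower with limma and 2 in those settings, beside 45.2% and 30.3% to 35.7% of all genes. The sums of the 5 markers overlapped, with 60.4 to 184 RPM in Sham and 24.9 to 112 RPM in Sham-OVA. The sums of the 5 neutrophil markers overlapped, with 59.6 to 635 RPM in Sham and 116 to 717 RPM in Sham-OVA. With limma 1 of these markers was higher, 1 lower and 3 not called in Sham-OVA, beside 20.6% higher and 47.5% lower of all genes. In PM-OVA 2 were higher, 1 lower and 2 not called, beside 20.1% and 45.2%. The part of these shifts in the results for mast cell genes was not tested.

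Genes most like 4 of the members were found by Pearson correlation across the 23 libraries after subtraction of group means, which is a description of shared library and depth effects as well as of expression. For Mcpt8 they were Prss34 (r = 0.921), Rab44 (0.783), Grm6 (0.768), Ms4a2 (0.755) and Cyp11a1 (0.751), but these rest on Sham-OVA replicate 4, since without it the 5 were 3110070M22Rik, Phf11b, Gtf2h4, Prtn3 and Gpihbp1. For Cpa3 the closest was Cyp11a1 (r = 0.760, and 0.715 without that library), followed by Ms4a2 (0.718), Pcdhb21 (0.717), Gm16701 (0.708) and Kat8 (0.690). Ms4a2 was among the 50 genes closest to Cpa3 with and without that library, where its r was 0.631. For Mcpt1 the 5 genes were Gm29686 (0.800), Gm15690 (0.794), Slc35a2 (0.749), 4930520O04Rik (0.736) and Ifnlr1 (0.735), and for Mcpt4 they were Pramef8, Dusp4, Asxl3, Pcdh12 and 2510009E07Rik, with r from 0.778 to 0.789. No other member was among the 50 genes closest to Mcpt1 or Mcpt4. Mcpt1 and Mcpt2 correlated at 0.108 and Mcpt1 and Tpsab1 at 0.492.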

How the data were processed

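Lung RNA of 23 mice was sequenced from polyadenylated RNA (stranded mRNA libraries, single-end reads). Per the methods, the authors used Trimmomatic for trimming, Bowtie2 for alignment to GRCm38 (mm10 in the submitters' processing notes, which also list bcl2fastq) and SeqMonk for counting over genes. The annotation version and the use of strand in counting are not given in the sources used here. The deposited values are RPM, reads scaled by the authors to the library's total: although the table is named after RPKM, 100% of the values were whole multiples of the worth of 1 read in their library (tolerance 0.05 reads), whatever the gene's length, and reads were recovered from them. Libraries are given the replicate numbers of the sample titles, which in the OVA groups mostly differ from the numbers in the library names.

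The test took the 16795 of 35322 genes that reached 0.5 RPM in 4 libraries or more. It was run on log2(RPM + 0.5) in R 4.3.3 (limma 3.58.1, trended variance), with Benjamini-Hochberg adjustment over those genes, and a gene was called at an adjusted p under 0.05. Each pair of groups had its own fit, and the interaction used all libraries. Comparisons share libraries. Ratios within libraries and Fcer1a, which did not pass the filter, were tested with two-sided exact permutation tests over libraries. Counting intervals for pooled reads (95%) and limits from 3 reads cover counting error only. The fits were tested on simulated counts. Only genes with a higher level in Sham than any of the 10 were changed there, so that test does not cover genes this low. The 10 genes, the lists around them and the tests, with the pairs of the ratios, were chosen with earlier results of these data known. All 10 genes are named. A gene of the list on IgE production is not reported here. Of each list, genes called in both OVA comparisons, the 3 largest differences in Sham-OVA and defining genes could be named, and those given are examples chosen from these. Fcgr1, Cyp11a1, Cd200r3 and genes given at or near 0 reads are named as exceptions after their values were seen.

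Alternatives were pseudocounts of 0.1 and 1, no filter and a filter on the mean, quantile or median-of-ratios scaling, a joint fit of the 4 groups, array weights, robust estimation, thinning to one depth, a replicate block, leaving out each library, and edgeR 4.0.16 and DESeq2 1.42.0 on the recovered reads, which called 11253 and 11751 genes in Sham-OVA against Sham. The stricter threshold (by each tool) and the values without Sham-OVA replicate 4 were added after the data were seen. Gene positions came from GENCODE and promoters from RefSeq. Python 3.11.15 with numpy 2.4.6, scipy 1.17.1, pandas 2.3.3 and matplotlib 3.10.9 did the rest.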

Additional observations from a re-analysis of the deposited data

Results flagged for a closer look

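Within groups of 4 to 7 libraries, 39 sets of values were checked for a highest or lowest library with a large gap to the rest. The check picked out 7. Its cut-off is meant to pick about 1 in 20 by chance, which need not hold for genes with few reads. For 3 genes the library was Sham-OVA replicate 4, with 68.0 RPM of Mcpt8, 3.90 RPM of Fcer1a and 7.17 RPM of Ms4a2, while the other 4 Sham-OVA libraries had at most 1.11, 0.511 and 1.25 RPM. Prss34 at 42.5 RPM and Cyp11a1 at 22.5 RPM moved with them in that library. Their part in the result was not tested. Mcpt1 was 5.59 RPM in Sham-OVA replicate 3, the shallowest library, from 18 reads. Mcpt2 was 0.151 RPM in Sham replicate 7, from 3 reads, and at 0 in the other Sham libraries, a pattern that this check always picks out. Tpsab1 was 2.86 RPM in PM-OVA replicate 2, from 37 reads. Cpa3 was 1.45 RPM in PM replicate 3, from 28 reads.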

How the results depend on the processing

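The Sham-OVA against Sham calls of Mcpt1, Mcpt2, Tpsb2, Tpsab1 and Cpa3, and the PM-OVA against PM call of Tpsab1, were kept at an adjusted p under 0.05 in every alternative run. Mcpt1, Mcpt2 and Tpsab1 passed the main filter only through OVA libraries, so their calls are descriptions. Of the 9 genes, 6 were called in Sham-OVA against Sham (5 to 7 on leaving out a library) and 2 at the stricter threshold. In PM-OVA against PM 7 were called (5 to 8 on leaving out a library), but 3 at one depth, 3 with a replicate block, 3 at an adjusted p under 0.01 and 0 at the stricter threshold. Neither PM against Sham nor PM-OVA against Sham-OVA had a call (0 of 9), whichever library was left out. In the interaction 0 were called, 0 to 1 on leaving out a library (1 without PM-OVA replicate 2) and 6 with array weights, under which 4616 of all genes were called, 3965 of them lower, and the median of all genes was -0.32. Of the ratios 4 were called, 2 to 4 on leaving out a library and 0 at one depth. Correlations between the deviations of same-numbered libraries were above 0.1 for 3 of 4 pairs in PM-OVA against Sham-OVA (0.22, 0.60 and 0.62, and -0.31 for replicate 4), and for 1 of 5, 0 of 4 and 1 of 7 pairs in Sham-OVA against Sham, PM-OVA against PM and PM against Sham. As this did not hold for every pair of a comparison, the numbers were not taken to pair the samples. These are the numbers of the titles, and pairing by the differing numbers in the library names was not tested. The replicate block called 7 of 9 genes in the offspring of saline dams and 3 in those of PM2.5 dams.

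In the OVA comparison of saline dams, scaling moved the median of all genes from -0.48 to -0.05 (quantile), -0.17 (median of ratios), -0.05 (edgeR) and -0.13 (DESeq2), and for PM2.5 dams from -0.43 to -0.02, -0.12, -0.06 and -0.06. In PM-OVA against PM, calls split into 3379 higher and 7589 lower genes, and with quantile normalisation into 5288 and 5445. Values whose sign turned follow, as differences in log2. In Sham-OVA against Sham, Cma1 was 0.28 (quantile), 0.012 (array weights), 0.17 (edgeR), 0.070 (DESeq2) and 0.33 (one depth), and Ms4a2 was 0.12 (pseudocount 1), 0.50 (quantile), 0.11 (median of ratios), 0.90 (array weights), 1.55 (edgeR), 1.39 (DESeq2) and 0.020 (one depth). In PM against Sham, Mcpt4 was -0.00079 (median of ratios), -0.045 (edgeR), -0.047 (DESeq2) and -0.31 (one depth), Cpa3 -0.040 (array weights), Mcpt8 0.10 (one depth) and Fcer1a 0.43 (one depth). The Mcpt2 interaction was 0.36 with edgeR. The ratio Mcpt1 to Mcpt4 was 0.11 at one depth in PM against Sham, and 0.23 with pseudocount 0.1 and 0.47 at one depth in PM-OVA against Sham-OVA. Mcpt8 to Cpa3 was 0.44 with pseudocount 0.1 in PM-OVA against PM. Fcer1a to Cpa3 was 0.23 at one depth in PM against Sham and -0.15 with pseudocount 0.1 in PM-OVA against Sham-OVA. Ms4a2 to Fcer1a was -0.24 at one depth in PM against Sham. The cause was not tested.

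Leaving out a library turned the sign of further values that were not called. Fcer1a ran from -0.023 to 0.76 and Ms4a2 from -0.65 to 0.33 in Sham-OVA against Sham. In PM against Sham, Mcpt4 ran from -0.085 to 0.14, Cpa3 from -0.0093 to 0.19, Fcer1a from -0.14 to 0.088 and Ms4a2 from -0.032 to 0.16. Cma1 ran from -0.39 to 0.14 in PM-OVA against Sham-OVA, and the Mcpt8 interaction from -1.41 to 0.031. Mcpt1 to Mcpt4 ran from -0.18 to 0.018 in PM against Sham and from -0.30 to 0.41 in PM-OVA against Sham-OVA. Mcpt8 to Cpa3 ran from -0.83 to 0.46 in Sham-OVA against Sham, from -0.47 to 0.20 in PM-OVA against PM and from -0.84 to 0.45 in PM-OVA against Sham-OVA. Fcer1a to Cpa3 ran from -0.22 to 0.41 in PM-OVA against Sham-OVA. Ms4a2 to Fcer1a ran from -0.017 to 0.17 in PM against Sham and from -0.45 to 0.14 in PM-OVA against Sham-OVA. Few reads per gene, down to 41 over the 10 genes in PM-OVA replicate 4, limit what differences could be seen.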
